A study of Mus musculus with 6 samples.

Results

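Kruppel-like factors (KLFs) were described in endothelial cells (ECs) isolated from mouse lungs that carried breast cancer metastases. The 9 genes were Klf2, Klf3, Klf4, Klf6, Klf7, Klf9, Klf10, Klf11 and Klf13, chosen by name as KLFs of flow response, quiescence, and hormone or clock response. Every probe set annotated with only one of these symbols was taken, which gave 31 probe sets of the 45101 on the array and 9 of the 18194 genes it represents. The shTNC group held 3 samples of lung ECs from NSG mice that had received MDA-MB-231-LM2 cells, human breast cancer cells selected for spread to the lung, with a hairpin against tenascin C (TNC), an extracellular matrix protein. The shControl group held 3 samples of lung ECs from NSG mice that had received the same cells with a control hairpin. In both groups the mice, which lack mature lymphocytes, were 6 to 8 weeks of age, the cells were given intravenously, and the lungs were collected 3 weeks later. Whole lungs were digested, and CD31-positive cells were sorted by flow cytometry after exclusion of GFP, CD45, CD11b, EpCAM, CD140a and CD140b. The hairpin acted in the human cancer cells, so the mouse array does not check the knockdown. Healthy vessels and vessels next to tumour lay in the same sorted sample. The comparison asks how lung EC transcripts differ when the cancer cells of the metastases make less TNC. The study reported that TNC knockdown reduced lung colonization, and it states no matching of metastatic load for these samples. Less TNC and a smaller metastatic load therefore cannot be told apart.

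KLFs are transcription factors with zinc fingers that bind GC-rich and CACCC sequences, and members of the family compete with one another and with SP factors for such sites. In endothelium, KLF2 and KLF4 are induced by laminar flow and maintain an anticoagulant, anti-inflammatory and quiescent state. KLF9 and KLF13 respond to steroid hormones or to the circadian clock in several tissues, KLF10 and KLF11 are induced by TGF-beta, KLF3 is a repressor that recruits CtBP, and KLF6 and KLF7 are associated with injury and early responses.

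No KLF transcript was called different between the groups after adjustment over all probe sets. The smallest adjusted p of the 31 probe sets was 0.286 in limma, and 0 passed an adjusted p of 0.05 (0% of all probe sets on the array did). Of the 31, 23 had a higher mean in shTNC samples and 8 a lower one, beside 47.4% of all probe sets higher. The median of the 31 log2 differences was 0.08, beside -0.01 over all probe sets. At an unadjusted p under 0.05, 5 probe sets were higher and 0 lower, beside 6.66% of all probe sets higher and 6.3% lower. The 5 belonged to Klf9 (2 probe sets), Klf6, Klf7 and Klf13. In 6 of the 31, every shTNC array lay above every shControl array, and in 0 every one lay below (8.92% and 10.5% of all probe sets). At the study's looser thresholds (an unadjusted p under 0.05 with an adjusted p below 0.25 and a change of more than 0.75 in log2), 0 KLF probe sets were called, beside 0.182% of all probe sets. With the brightest probe set standing for each gene, 7 of 9 KLFs were higher and 2 lower, beside 41.7% of all genes higher. Of the 9, 0 reached an unadjusted p of 0.05 (4.54% of all genes were higher and 7.12% lower at that p). The smallest adjusted p among these 9 was 0.387, for Klf11.

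These directions and counts moved when single arrays were left out. Without shTNC replicate 2, 4 of 9 KLFs were higher and 1 of the 31 probe sets was higher at an unadjusted p under 0.05 (4.86% of all probe sets were). Without shTNC replicate 3 these counts were 5 of 9 and 2 of 31 (5.03% of all probe sets). Among the 31 KLF probe sets, shControl replicate 2 gave the lowest of the 6 values in 22 (71.0%), whereas it was lowest in 21.3% of all probe sets. Of the 22, 6 were of Klf9 and 5 of Klf3, and probe sets of 1 gene are repeated reads of it. By the brightest probe set, that array was lowest in 5 of 9 KLFs (55.6%), beside 16.3% of all genes. Without shControl replicate 2, 14 of the 31 KLF differences were higher and 17 lower (48.1% of all probe sets were higher), and the median turned to -0.016. With 1 probe set per gene, 3 of 9 KLFs were then higher (45.3% of all genes were), with a median of -0.035. The sign turned in 9 of 31 KLF probe sets (29.0%), all 9 from higher to lower, and in 14.5% of all probe sets. All 7 Klf9 probe sets kept their sign, as did Klf11. This control array stood apart over all genes, with a score of 43.6 on the first principal component (36.6% of the variance) against -21.1 to 11.1 on the other 5 arrays. It also had the highest mean deviation of the cell cycle list (0.48 on the log2 scale, against -0.31 to 0.28 on the others) and the lowest of the heat-shock list (-0.32, against -0.16 to 0.24). The 3′ minus 5′ signal of the Actb control probe sets, a sign of RNA quality, was 0.28 on that array, between 0.28 and 0.29 on all shControl arrays, and between 0.20 and 0.27 on shTNC arrays. That of the Gapdh control probe sets overlapped between groups, at 0.56 to 0.57 on shControl arrays and 0.50 to 0.58 on shTNC arrays. The part of these features in the KLF values was not tested.

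**Figure D1:**
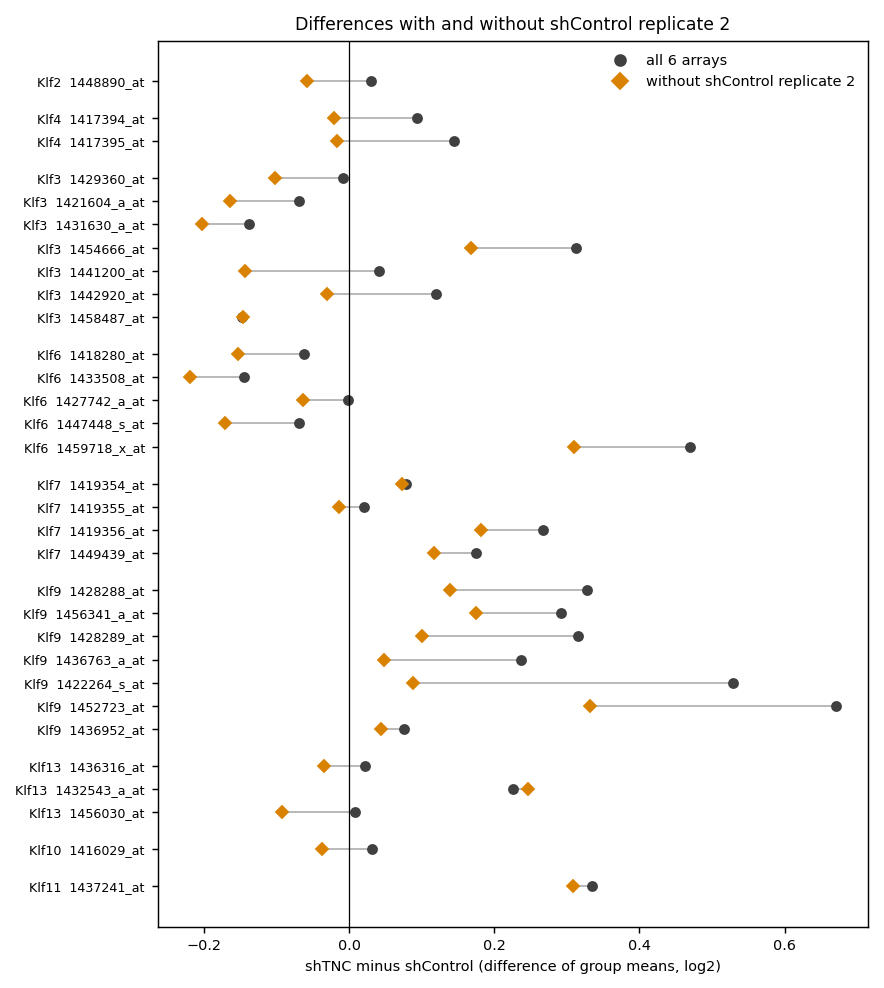
Difference of group means (shTNC minus shControl, log2) for each of the 31 KLF probe sets, grouped by gene, with all 6 arrays (grey circles) and without shControl replicate 2 (orange diamonds). Positive differences shrink in most probe sets, 9 cross 0 to lower, and all 7 Klf9 probe sets stay above 0.

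The 12 pan-endothelial markers were all above the background level of 7.48 (taken from 44 probe sets of olfactory receptors, at their percentile 95), and 0 of the 12 reached an unadjusted p of 0.05 (median difference -0.027). All 31 KLF probe sets lay above background too. The summed level of the 10 fibroblast markers ranged from 14.30 to 14.82 in shTNC samples and from 13.89 to 14.47 in shControl samples (log2), with 2 of 10 higher at an unadjusted p under 0.05. By sign, 7 of the 10 were higher, and their median difference was 0.36 (0.40 without shControl replicate 2). The 14 macrophage and monocyte markers summed to 12.99 to 13.47 in shTNC and 13.41 to 13.50 in shControl samples, with 3 of 14 lower at that p. By sign, 11 of the 14 were lower (median difference -0.12), and among the 14 Adgre1, Itgam, Ccr2 and Siglecf were near background. The 10 pericyte and smooth muscle markers summed to 12.57 to 12.90 in shTNC and 12.53 to 12.58 in shControl samples, with 2 higher at that p. By sign, 6 of these 10 were higher (median difference 0.13). Of 12 epithelial, 8 lymphocyte and 6 neutrophil markers, 1, 1 and 0 were lower and 0 higher at that p, and of 6 platelet and erythroid markers 1 was higher. KLFs are expressed in these cell types as well, and their part in the KLF values was not tested. In such bulk samples, fewer cells of a type and less RNA per cell cannot be told apart.

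KLF9 binds GC-box and GT-box sequences, is induced by glucocorticoids and thyroid hormone, and cycles with the clock in several mouse tissues. Klf9 had 2 of its 7 probe sets at an unadjusted p under 0.05, Klf6 1 of 5, Klf7 1 of 4 and Klf13 1 of 3. Of all probe sets, 6.66% were higher at that p. Klf2, Klf10 and Klf11 had only 1 probe set each, so these counts do not rank the genes. KLF13 is a close relative of KLF9 in sequence and is known in immune cells as a regulator of the chemokine RANTES. The bases just before the annotated start are shown for the 4 genes with a probe set past that p and so carry most of the values below, though none of the 4 was called different after adjustment. Each is the 150 bases upstream of the start in RefSeq on GRCm38.p6, written in the direction of transcription, with any searched motif in capitals.
Klf9, chr19:23141076-23141225, plus strand: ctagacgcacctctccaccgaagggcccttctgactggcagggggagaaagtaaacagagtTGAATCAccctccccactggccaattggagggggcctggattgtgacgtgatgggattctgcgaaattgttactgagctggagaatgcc
Klf13, chr7:63938916-63939065, minus strand: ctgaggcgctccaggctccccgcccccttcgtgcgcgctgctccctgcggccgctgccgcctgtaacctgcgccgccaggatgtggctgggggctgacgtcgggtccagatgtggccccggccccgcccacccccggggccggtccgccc
Klf6, chr13:5861339-5861488, plus strand: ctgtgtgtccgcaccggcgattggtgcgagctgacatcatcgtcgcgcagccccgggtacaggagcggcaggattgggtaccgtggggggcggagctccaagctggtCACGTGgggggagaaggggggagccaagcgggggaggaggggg
Klf7, chr1:64121390-64121539, minus strand: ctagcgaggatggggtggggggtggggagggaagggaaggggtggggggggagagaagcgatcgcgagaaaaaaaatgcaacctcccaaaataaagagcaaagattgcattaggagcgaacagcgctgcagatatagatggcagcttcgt
In the 250 bases before the start, 7 motifs were searched on both strands, namely TATTTATA (MEF2), CACGTG (E-box), TGACGTCA (CRE), TGANTCA (AP-1), ACANNNTGT (a pair of glucocorticoid half-sites), TTATGTAA (D-box) and the CArG box. Klf9 held 1 match to TGANTCA, namely TGAATCA, at 89 to 83 bases before the start, and these searched letters were found in 6.75% of 32851 promoters. The N allowed any base, whereas the usual AP-1 site holds C or G there, which TGAATCA does not. Klf6 held an E-box at 43 to 38 bases, Klf4 at 182 to 177 and Klf11 at 214 to 209, a motif found in 6.02% of promoters. No match to any of the 7 lay in this window of Klf2, Klf3, Klf7 or Klf13. The MEF2 motif occurred in 1.56% of promoters, the CRE in 1.55%, the glucocorticoid pair in 5.84%, the D-box in 0.819% and the CArG box in 1.47%. The 8 promoters matched had a median GC content of 71.4%, against 52.4% over all promoters, and those of Klf7 and Klf9 were the lowest of the 8 at 59.2% and 59.6%. No promoter of the 8 held more than 1 match, and a match of letters is not a binding site.

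All 7 Klf9 probe sets had a higher mean in shTNC samples, by 0.08 to 0.67 on the log2 scale. The brightest, 1428288_at, read 12.77, 12.85 and 12.82 in shTNC samples, against 12.72, 12.11 and 12.63 in shControl samples. The groups did not overlap, but shControl replicate 2 lay far below the other 5 arrays, which spanned 0.21. The difference was 0.33 ± 0.16 (SE, limma, n = 3 per group), with an unadjusted p of 0.067 and an adjusted p of 0.415. The 1452723_at probe set had the largest difference of the family. It read 10.09, 10.37 and 10.29 in shTNC samples, against 9.93, 8.90 and 9.91 in shControl samples, so that the groups did not overlap. Its difference was 0.67 ± 0.26 (adjusted p = 0.338), a 1.59-fold higher level. A 0.29 ± 0.12 difference was measured by 1456341_a_at, again without overlap (12.73, 12.75 and 12.74 in shTNC samples, against 12.65, 12.21 and 12.49 in shControl samples, adjusted p = 0.358).

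The 4 other Klf9 probe sets overlapped between groups. The spread was widest in 1422264_s_at, at 10.16, 10.33 and 10.17 in shTNC samples, against 10.24, 8.81 and 10.03 in shControl samples. There shControl replicate 2 lay 1.21 below the lowest of the other 5 arrays, and the difference was 0.53 ± 0.32 (adjusted p = 0.518). By the array's naming, an s_at set holds probes shared by several transcripts, so this value is less certainly Klf9. Probe sets 1428289_at (0.32 ± 0.19), 1436763_a_at (0.24 ± 0.16) and 1436952_at (0.08 ± 0.10) had adjusted p values of 0.519, 0.550 and 0.791. In 6 of the 7 Klf9 probe sets, shControl replicate 2 was the lowest array. Without that array the 7 differences ran from 0.04 to 0.33 and their median was 0.10, against 0.32 with all arrays. The 1452723_at difference was then 0.33 (unadjusted p = 0.019, adjusted p = 0.388), that of 1428288_at 0.14 (adjusted p = 0.603) and that of 1456341_a_at 0.17 (adjusted p = 0.536). Within the shTNC group, 1456341_a_at varied by an SD of 0.012, against 0.22 in shControl samples.

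**Figure D2:**
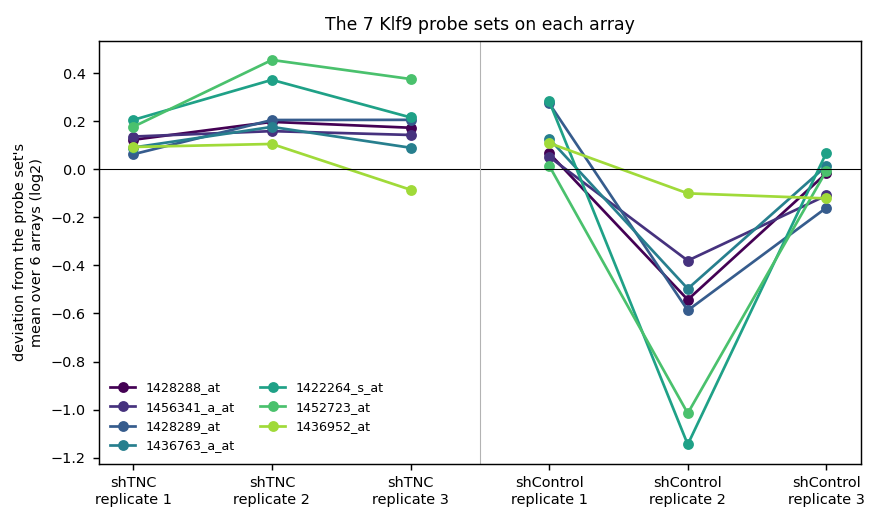
Deviation of each of the 7 Klf9 probe sets from its own mean over the 6 arrays (log2), by array, with shTNC arrays left of the line; segments join the values of 1 probe set within a group and carry no order. The shTNC values deviate by at most 0.45, while shControl replicate 2 falls to -1.14 in 1422264_s_at and -1.02 in 1452723_at, and 1436952_at moves least.

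Klf13 gave 1 probe set of 3 past an unadjusted p of 0.05. It was 1432543_a_at, at 11.81, 11.87 and 11.78 in shTNC samples, against 11.62, 11.64 and 11.52 in shControl samples. The groups did not overlap, and shControl replicate 2 was the highest of the 3 control arrays here. The difference of 0.23 ± 0.08 (adjusted p = 0.327) was 0.25 without that array. The brightest Klf13 probe set, 1436316_at, read 12.82, 12.86 and 12.76 in shTNC samples, against 12.86, 12.68 and 12.83 in shControl samples, a difference of 0.02 ± 0.09 with a 95% interval of -0.18 to 0.23. The third, 1456030_at, differed by 0.01 ± 0.15, and both turned lower without shControl replicate 2 (-0.035 and -0.092).

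Because KLF9 is tied to the clock and to glucocorticoids, both lists are given beside it. Of 18 clock genes, 10 were higher and 2 lower at an unadjusted p under 0.05, with a median difference of 0.44 (0.37 without shControl replicate 2) and 0 past the adjusted threshold. Dbp, an output factor of the clock, read 12.50, 12.42 and 12.67 in shTNC samples, against 11.12, 10.94 and 12.03 in shControl samples (difference 1.17 ± 0.25, adjusted p = 0.204). Per3, a period gene, had a difference of 0.92 ± 0.18, Bhlhe41, a repressor of clock-driven transcription, 0.96 ± 0.22, and Hlf, a relative of Dbp, 0.50 ± 0.12 (adjusted p of 0.184, 0.219 and 0.219). Earlier results of these data had shown Dbp and Per3 high, so the list is no independent evidence. Of 20 glucocorticoid-response genes, 0 were past an unadjusted p of 0.05, 5 were higher and 15 lower, with a median of -0.052. The smallest p of that list was at Cebpb (-0.47 ± 0.23, adjusted p = 0.421), followed by Cebpd (-0.32 ± 0.15, adjusted p = 0.427), which both encode C/EBP factors, and Fkbp5 (-0.39 ± 0.20, adjusted p = 0.446), a co-chaperone of the receptor.

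The flow-response factors did not separate the groups. Klf2 had 1 probe set, 1448890_at, which read 12.04, 12.45 and 12.66 in shTNC samples, against 12.25, 12.18 and 12.64 in shControl samples. The lowest and the highest array were both shTNC samples, and the mean difference of 0.03 ± 0.18 (adjusted p = 0.960) had a 95% interval of -0.38 to 0.44. Klf4 was read by 1417394_at at 12.98, 13.27 and 13.47 in shTNC samples, against 13.29, 12.92 and 13.23 in shControl samples. The lowest values were those of shControl replicate 2 and shTNC replicate 1, and the difference was 0.09 ± 0.15 (adjusted p = 0.828). The second Klf4 probe set, 1417395_at, gave 0.14 ± 0.18 (adjusted p = 0.772). Without shControl replicate 2 the Klf2 difference was -0.058 and the Klf4 differences were -0.021 and -0.016. Both genes were highest in shTNC replicate 3, at 0.30 above the mean of the 6 arrays, whereas the lowest array was shTNC replicate 1 for Klf2 (-0.33) and shControl replicate 2 for Klf4 (-0.34).

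Of 20 genes that act upstream of KLF2 and KLF4 (the MEKK3-MEK5-ERK5 kinases, MEF2 factors, the CCM complex and others), 0 reached an unadjusted p of 0.05, and the median difference was 0.007. Krit1, a CCM complex gene, had the smallest p of the list (0.18 ± 0.09, adjusted p = 0.454). Of 22 flow-induced targets, 4 were higher and 0 lower at that p, with a median of 0.10 (0.06 without shControl replicate 2). Tmem100, an endothelial membrane protein gene, read 13.17, 13.20 and 13.19 in shTNC samples, against 12.89, 12.86 and 12.91 in shControl samples, a tight difference of 0.30 ± 0.08 (adjusted p = 0.244). The other 3 were Gja4, which encodes connexin 37 (0.33 ± 0.13), the chemokine gene Cxcl12 (0.23 ± 0.08) and the caveolar gene Cav1 (0.20 ± 0.08), with adjusted p values of 0.358, 0.303 and 0.348. A further 19 genes were listed, from general knowledge, as held down by KLF2 or KLF4. Of these, 2 were higher and 5 lower at an unadjusted p under 0.05, with a median of -0.064. Il6, 1 of the 2 higher, was near background. The Adamts genes of this list are not certain to be held down, and Adamts5 was among the 5 lower. Thbs1, which encodes the angiogenesis inhibitor thrombospondin 1, was at 10.87, 10.72 and 10.78 in shTNC samples, against 11.80, 11.34 and 11.55 in shControl samples (-0.77 ± 0.12, adjusted p = 0.182). The selectin genes Selp (-0.28 ± 0.09) and Sele (-0.55 ± 0.17) were on the same side with adjusted p values of 0.284 and 0.286, whereas the adhesion gene Vcam1 was on the other (0.31 ± 0.10, adjusted p = 0.281). Each of these named targets kept its sign without shControl replicate 2, and none passed the adjusted threshold.

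**Figure D3:**
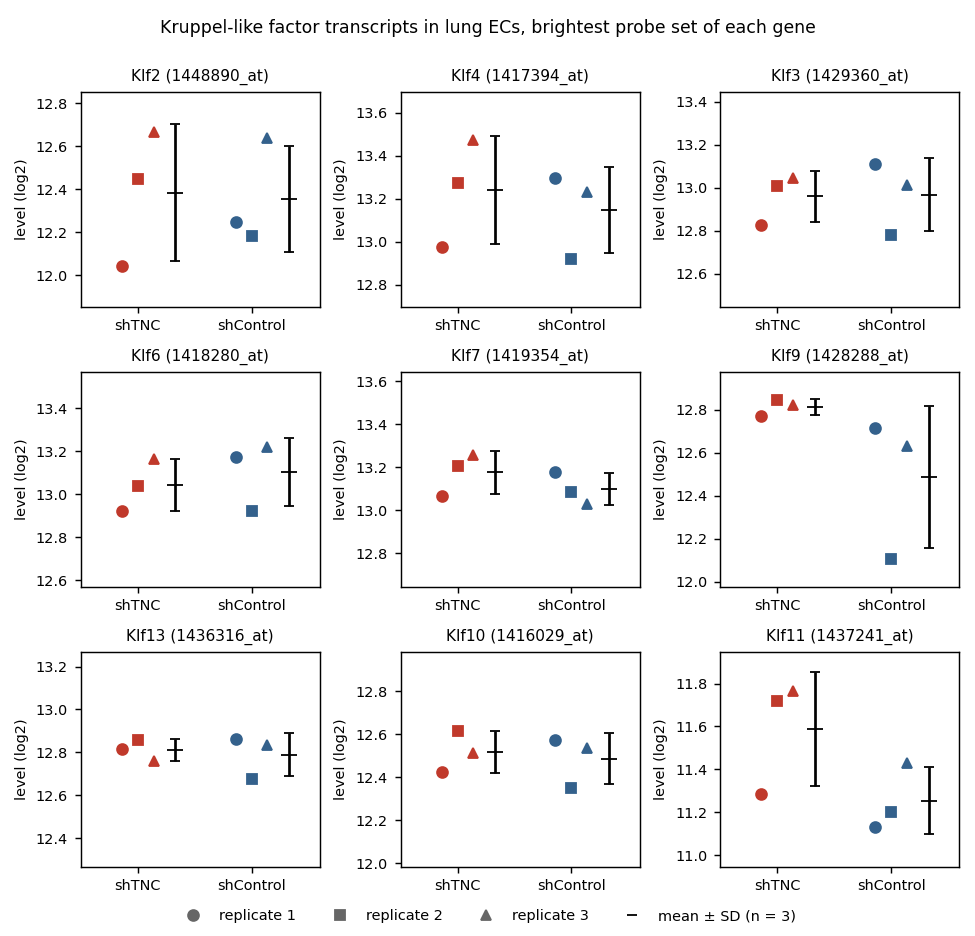
Level (log2, deposited values) of the brightest probe set of each of the 9 KLFs, with shTNC left of shControl, 1 point per array, shapes for the replicate number and bars for the mean ± SD (n = 3); each panel spans 1 log2 unit. Only Klf9 shows groups that do not overlap, Klf2 and Klf4 spread more widely within shTNC than their group means differ, and Klf11 has 2 shTNC arrays above all controls.

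KLF11, a repressor that recruits SIN3A, and KLF10 are both early targets of TGF-beta. Klf11 read 11.28, 11.72 and 11.76 in shTNC samples, against 11.13, 11.20 and 11.43 in shControl samples (1437241_at, its only probe set). Replicates 2 and 3 of shTNC lay above all controls, while shTNC replicate 1 lay below shControl replicate 3. The difference was 0.33 ± 0.15 (unadjusted p = 0.051, adjusted p = 0.387, 95% interval -0.001 to 0.67). Without shTNC replicate 1 it was 0.49 (unadjusted p = 0.005, adjusted p = 0.417), and without shControl replicate 2 it was 0.31. Klf10 (1416029_at) was at 12.42, 12.62 and 12.51 in shTNC samples, against 12.57, 12.35 and 12.54 in shControl samples. Its groups overlapped throughout, with a difference of 0.03 ± 0.10 (adjusted p = 0.921, 95% interval -0.20 to 0.26). Of 15 TGF-beta response genes, 2 were higher and 4 lower at an unadjusted p under 0.05, with a median of 0.01. They went in both directions, from Id2, an inhibitor of bHLH factors (0.60 ± 0.14), and Smad7, an inhibitor of the pathway (0.29 ± 0.08), to Ccn2, a matricellular protein gene (-0.47 ± 0.11), and Bmp2, a ligand (-0.96 ± 0.18), with adjusted p values of 0.219, 0.264, 0.221 and 0.184.

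KLF6 is induced after vascular injury, and its probe sets disagreed in direction, with 4 of the 5 lower and 1 higher. The brightest, 1418280_at, read 12.92, 13.04 and 13.16 in shTNC samples, against 13.17, 12.92 and 13.22 in shControl samples (-0.063 ± 0.11, adjusted p = 0.847). The higher one, 1459718_x_at, read 8.17, 8.23 and 8.42 in shTNC samples, against 7.90, 7.48 and 8.03 in shControl samples, with no overlap. Its difference of 0.47 ± 0.15 had the smallest p of the family (unadjusted p = 0.013, adjusted p = 0.286), and was 0.31 without shControl replicate 2. By the array's naming, an x_at set holds probes that can match other transcripts, and an s_at set holds probes shared by several transcripts. This value, and that of 1447448_s_at, are therefore less certainly Klf6 than those of the remaining probe sets. Among the 4 lower probe sets, 1433508_at differed by -0.14 ± 0.10, 1447448_s_at by -0.069 ± 0.12 and 1427742_a_at by -0.002 ± 0.11. Without shControl replicate 2, 1433508_at was at -0.22 (unadjusted p = 0.037, adjusted p = 0.430), which was the single KLF probe set of 31 then lower at that unadjusted p (5.25% of all probe sets were). The 3 then higher were Klf6 1459718_x_at, Klf9 1452723_at and Klf13 1432543_a_at (5.67% of all probe sets were).

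KLF7 is best known from neurons. All 4 of its probe sets had a higher mean in shTNC samples. The 1419356_at probe set read 12.13, 12.16 and 12.33 in shTNC samples, against 11.93, 11.77 and 12.11 in shControl samples. The groups did not overlap by a margin of 0.016 between the lowest shTNC and the highest shControl array, and the difference was 0.27 ± 0.11 (unadjusted p = 0.046, adjusted p = 0.378). It was 0.18 without shControl replicate 2 (unadjusted p = 0.137). The brightest Klf7 probe set, 1419354_at, read 13.07, 13.21 and 13.26 in shTNC samples, against 13.18, 13.09 and 13.03 in shControl samples (0.08 ± 0.09, adjusted p = 0.754). The other pair, 1449439_at and 1419355_at, gave 0.18 ± 0.10 and 0.02 ± 0.08. As other early-response genes, 26 immediate-early genes had 3 higher and 2 lower at an unadjusted p under 0.05 (median 0.10). Junb, an AP-1 subunit gene, was at 0.52 ± 0.13 and Ier2, a growth-factor-induced gene, at 0.45 ± 0.09, whereas the growth regulator Myc was at -0.67 ± 0.13 and the AP-1 gene Fosl2 at -0.48 ± 0.20, with adjusted p values of 0.226, 0.190, 0.190 and 0.373. Of 11 heat-shock genes, which respond to dissociation stress, 2 were higher and 0 lower at an unadjusted p under 0.05. By sign of the difference, 4 of the 11 were higher and 7 lower (median -0.041). The 2 at that p were Hspa1a (1.57 ± 0.38) and Hspa1b (1.37 ± 0.29), near-identical genes whose probes may not tell them apart.

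Klf3 was read by 7 probe sets, of which 3 were higher and 4 lower. The brightest, 1429360_at, read 12.83, 13.01 and 13.04 in shTNC samples, against 13.11, 12.78 and 13.01 in shControl samples, a difference of -0.008 ± 0.11 (adjusted p = 0.983). The extremes were 1454666_at at 0.31 ± 0.15 (adjusted p = 0.414) and 1458487_at at -0.15 ± 0.09 (adjusted p = 0.537). In 1454666_at, shControl replicate 2 read 11.75 while the other 5 arrays lay between 12.11 and 12.46, and without it the difference was 0.17. No Klf3 probe set reached an unadjusted p of 0.05 or separated the groups with all arrays.

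**Figure D4:**
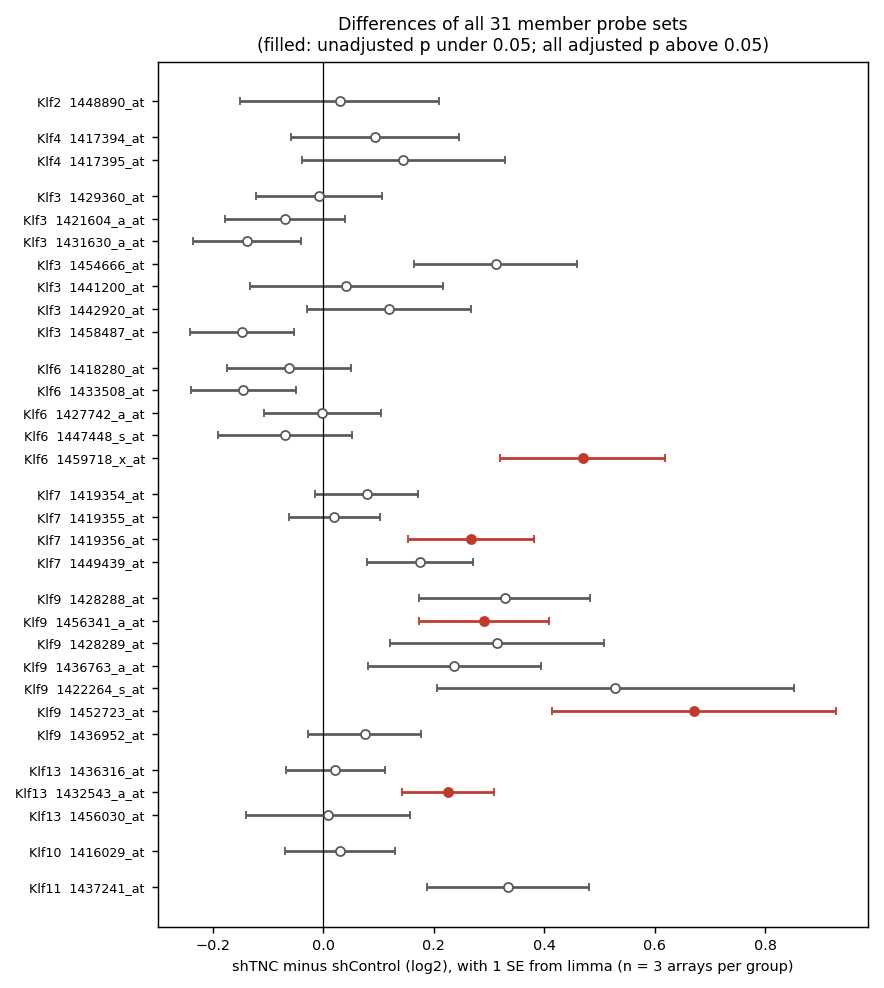
Difference shTNC minus shControl (log2) of all 31 KLF probe sets, with bars of 1 SE (limma, n = 3 for each group), grouped by gene. Filled red points mark the 5 with an unadjusted p under 0.05, all higher, and no probe set passed the adjusted threshold; within Klf6 the filled point lies opposite to the other 4.

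Relatives outside the 9 were measured on the same arrays. All 7 other KLF genes on the array had a lower mean in shTNC samples by their brightest probe set. By the same measure 41.7% of all genes were higher. The 7 differences ran from -0.23 to -0.014 with a median of -0.084, and 0 reached an unadjusted p of 0.05. Klf14 was near background and Klf1 and Klf5 lay little above it, so the signs of these genes are less certain. Without shControl replicate 2, Klf1 and Klf5 turned to 0.017 and 0.059. Klf12, a repressor, had 5 probe sets, of which the brightest, 1439846_at, was at -0.13 ± 0.17 and the other 4 were higher. Of these, 1422227_at read 10.68, 10.38 and 10.54 in shTNC samples, against 10.04, 10.06 and 10.18 in shControl samples (0.44 ± 0.10, unadjusted p = 0.003, adjusted p = 0.221). The largest Klf12 difference was that of 1455521_at, at 8.34, 8.59 and 8.62 in shTNC samples, against 8.28, 7.81 and 7.91 in shControl samples, again with no overlap (0.52 ± 0.14, unadjusted p = 0.006, adjusted p = 0.255). Of the 7 SP genes, which bind the same GC boxes, Sp4 was higher at an unadjusted p under 0.05 (0.30 ± 0.10, adjusted p = 0.284) and Sp8 was lower but near background. The second Sp4 probe set differed by -0.031 ± 0.17.

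Of 17 quiescence genes and cell cycle inhibitors, which KLF2 and KLF4 are linked to, 1 was higher and 1 lower at an unadjusted p under 0.05 (median 0.08). These were Cdkn2b (0.48 ± 0.12) and Cdkn2c (-0.40 ± 0.16), genes of INK4 inhibitors of cyclin-dependent kinases. Of 19 cell cycle genes, 0 were higher and 14 lower, with a median of -0.61 (-0.47 without shControl replicate 2) and 0 past the adjusted threshold. Rrm2, a ribonucleotide reductase subunit gene, differed by -0.79 ± 0.11 and Kif11, a mitotic kinesin gene, by -0.61 ± 0.09, each with an adjusted p of 0.182.

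The genes closest in pattern to Klf11 and Klf9, which had the smallest p of the 9 KLFs when each was read by its brightest probe set, were found by the root mean square distance between centred log2 values over the 6 arrays among 13444 genes above background. For Klf11 they were Gk5 (distance 0.061), 2310067E19Rik (0.062), Tob2 (0.069), Dnmt3b (0.072) and Acot1 (0.079), which all had shTNC replicates 2 and 3 above shTNC replicate 1. For Klf9 they were Ackr4 (0.040), Jade3 (0.054), Cyp20a1 (0.057), Slc6a6 (0.062) and Nfyb (0.062). All 5 were lowest in shControl replicate 2, as Klf9 was. Such shared features of both sets of neighbours follow from their selection by distance and are no separate result.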

How the data were processed

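Total RNA of sorted lung ECs was hybridised to Affymetrix mouse genome arrays, 3 per group, labelled as biological replicates, so p-values measure the spread between these samples. The deposited values are log2 levels per probe set, which the authors normalised by RMA in Chipster from the raw array files; many low values are tied, and no detection calls were used here. Gene names came from the platform annotation (34958 of 45101 probe sets had 1 symbol). The brightest probe set, by mean over 6 arrays, stood for its gene. The test was two-sided limma (version 3.58.1, R version 4.3.3; linear fit and empirical Bayes, no covariate), and p-values of the 45101 probe sets were adjusted together by Benjamini-Hochberg. Gene lists were described by counts and medians with no set test. An exact permutation test of 3 against 3 arrays cannot go below 0.1, so it decides no call. The steps were tested on simulated data. Named genes were all 9 members with every probe set, up to 4 genes with the smallest p above background in each list, other KLF and SP genes with an unadjusted p under 0.05, and the 5 nearest patterns of 2 members; of these, only those bearing on a result are printed. The Klf12 probe sets were named after their values were seen. Members and lists were chosen with earlier results of these data known. Promoters came from RefSeq (GRCm38.p6), with 8 of 9 members matched. Alternatives were other scalings, a filter on dim probe sets, other eBayes settings, array weights, other gene summaries, a replicate block and leaving out each array.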

Additional observations from a re-analysis of the deposited data

How the results depend on the processing

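None of the KLF probe sets passed an adjusted p of 0.05 in any of the alternatives run, and the smallest adjusted p among them was 0.188. At the study's looser thresholds, Klf9 1452723_at was called without shControl replicate 3, as were 225 of all probe sets in that setting. Its limma difference there was 0.84 (unadjusted p = 0.019, adjusted p = 0.238). Leaving out 1 array at a time reversed 24 of 186 differences of the 31 KLF probe sets, in 12 probe sets; several other alternatives change only the test and leave the difference as it was. With an intensity trend and robust eBayes, 9 probe sets of the array passed the adjusted threshold, and 9 KLF probe sets were higher at an unadjusted p under 0.05, in place of 0 and 5 (7.25% of all probe sets were higher at that p, in place of 6.66%). With 1 probe set per gene, 1 passed the adjusted threshold, 32 the study's looser thresholds and 2387 an unadjusted p under 0.05. With the mean of a gene's probe sets these counts were 1, 22 and 2357, all 9 KLFs were higher, and the differences of Klf3 and Klf6 turned to 0.016 and 0.038. These 2 settings test fewer features than the 45101 probe sets, of which 0, 82 and 5846 passed. With array weights, Klf13 1456030_at turned to -0.027. Leaving out each array in turn gave 0 to 4 probe sets at the adjusted threshold, 0 to 225 at the looser thresholds, and 3 (without shControl replicate 2) to 8 of 9 KLFs higher, with 4 without shTNC replicate 2. KLF probe sets at an unadjusted p under 0.05 then numbered 1 (without shTNC replicate 2) to 8 (without shControl replicate 1) higher and 0 to 1 lower, with 2 higher without shTNC replicate 3 and 3 without shControl replicate 2; of all probe sets, 4.86% to 8.01% were higher and 4.18% to 7.99% lower at that p. The median of the 9 KLFs ran from -0.035 to 0.13. Over the same omissions, Klf2 1448890_at ran from -0.11 to 0.20, Klf4 1417394_at from -0.023 to 0.23, Klf4 1417395_at from -0.016 to 0.31, Klf3 1429360_at from -0.10 to 0.064, Klf3 1441200_at from -0.14 to 0.19 and Klf3 1442920_at from -0.030 to 0.22. Klf6 1427742_a_at ran from -0.064 to 0.076, Klf6 1447448_s_at from -0.17 to 0.0089, Klf7 1419355_at from -0.014 to 0.045, Klf13 1436316_at from -0.035 to 0.058, Klf13 1456030_at from -0.14 to 0.087 and Klf10 1416029_at from -0.037 to 0.078. The causes were not tested. The labels do not say whether the replicate numbers pair the samples. Same-number correlations of -0.11, 0.04 and 0.14 cannot settle this with 3 arrays per group. With the number as a replicate block, 6 KLF probe sets were higher and 0 lower at an unadjusted p under 0.05 (6.67% and 6.06% of all probe sets). Klf11 was among these 6 (unadjusted p = 0.019, adjusted p = 0.321). In that setting 7 of 9 KLFs were higher, and 0 probe sets passed the adjusted threshold. With 3 arrays per group, small differences of KLFs are not resolved: the 95% interval of Klf2 alone spans -0.38 to 0.44.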
